A study of Mus musculus with 6 samples.

Results

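The auxiliary subunits of voltage-gated calcium channels were followed in granule cells of the dentate gyrus (DG) after adult deletion of the transcription factor Bcl11b/Ctip2. They were chosen by gene family, as 7 genes: the α2δ subunits Cacna2d1, Cacna2d2 and Cacna2d3 and the β subunits Cacnb1, Cacnb2, Cacnb3 and Cacnb4. Of these, 6 had a probe set paired with them alone, all 3 α2δ and 3 of 4 β subunits, among 19938 genes tested. For Cacnb3 none was listed, so that it was not analysed here. The mutant group held 3 samples of a tet-off line: the transactivator tTA, driven by the CaMKIIα promoter, switches on a tetO-Cre transgene, and Cre deletes the floxed Bcl11b alleles in forebrain neurons, not in granule cells alone. The control group held 3 samples labelled as Bcl11b controls, and for this line no source used here gives their alleles. Both groups received doxycycline, which keeps Cre off, in the drinking water up to 2 months of age and were sacrificed 4 weeks after it was removed. The granule cell layer was cut from stained cryosections by laser capture microdissection, and its RNA was hybridized to 1 Affymetrix whole-transcript array per sample. Whether an array stands for 1 animal is not stated in the labels or the methods, so that p-values reflect only how these samples vary, which may be technical. All levels are log2 expression values made by the authors with RMA, so that a difference of 1 is a doubling.

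Voltage-gated calcium channels open on depolarization and admit the calcium that drives transmitter release at boutons such as those of the mossy fibers, the axons of granule cells. High-voltage-activated channels are built around a pore-forming α1 subunit that carries 2 kinds of auxiliary subunit. The β subunits are cytosolic, bind the intracellular loop between the first and the second repeat of α1, bring the channel to the surface and shape its gating. The α2δ subunits are extracellular proteins held at the membrane, raise the number of channels at the surface and at release sites, and also act in synapse formation. Low-voltage-activated T-type channels can work without either kind.

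Short stretches are shown for the members whose window before the first listed start site held the pentamer TGGGC, a putative recognition sequence of Bcl11b. They give the genomic context of the subunits described next, and no array value bears on binding. In RefSeq (GRCm38.p6), the 250 bases before the first listed start site of each gene were read on the gene's strand and searched for TGGGC on both strands (GCCCA on the other). Each line gives 25 bases, 5′ to 3′, with the match in capitals.
Cacna2d1, chr5:15934555-15934579, + strand: ccctcccgctGCCCAcccacagccg
Cacna2d3, chr14:29722026-29722050, - strand: gaggcggggcTGGGCagctgccgcg
Cacnb2, chr2:14604073-14604097, + strand: ctgagtcggaGCCCAcgcggcccgc
Cacnb2, chr2:14604213-14604237, + strand: gagccagcccGCCCAgcagtcccag
Cacnb2, chr2:14604244-14604268, + strand: ccgctcgcggGCCCAgaagctccaa
Cacnb4, chr2:52676355-52676379, - strand: cgcgccctccGCCCAccgcgctgcg
The pentamer stood in 4 of 7 members and in 50.5% of the first windows of 27025 genes, and 3 of its 6 matches lay in Cacnb2. Windows of 60 to 80% GC held it more often, in 67.2% of 7121. The windows of the 4 genes with a match lie wholly inside the annotated gene, whose annotated start is further upstream, so that they were not shown to be promoters. The windows of Cacna2d2, Cacnb1 and Cacnb3 held no match, which says only that these letters are not there.

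The targeted gene Bcl11b (probe set 10402554) had levels of 9.03, 8.68 and 8.82 in mutant arrays, against 10.56, 10.40 and 10.30 in control arrays. The log2 change was -1.58 (standard error (SE) 0.099, adjusted p = 2.56e-05 from limma), with no overlap. Whether its probes fall inside the deleted exons was not tested. On the first principal component, which held 70.4% of the variance, mutant arrays lay between -18.6 and -18.4 and control arrays between 15.8 and 20.4. On the second, which held 14.5%, control 1 stood apart at 16.3. Control 3 lay on the other side at -11.8, and the remaining arrays lay between -2.70 and 1.85. Calls of the measured subunits that rest on control 1 are given with and without it. Limma with Benjamini-Hochberg adjustment over all genes, at a threshold of 0.05, called 3023 of 19938 genes, 1840 higher and 1183 lower.

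Cacna2d1 and Cacnb4 rose and Cacnb2 fell in the mutant, each by no more than 0.25 on the log2 scale, while Cacna2d2, Cacna2d3 and Cacnb1 did not pass the test. So 3 of 6 measured subunits were called, beside 15.2% of all genes, 2 of them higher (9.23% of all genes) and 1 lower (5.93%). The groups of arrays did not overlap for any of the 6 subunits, as was the case for 31.6% of all genes. Among the 9970 genes with a mean level at or above the median of gene means, 25.0% were called. For comparison, over all called genes the median size of the log2 change was 0.38. The pieces cut out are bulk tissue, in which fewer cells of a type and less RNA per cell cannot be told apart.

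**Figure D1:**
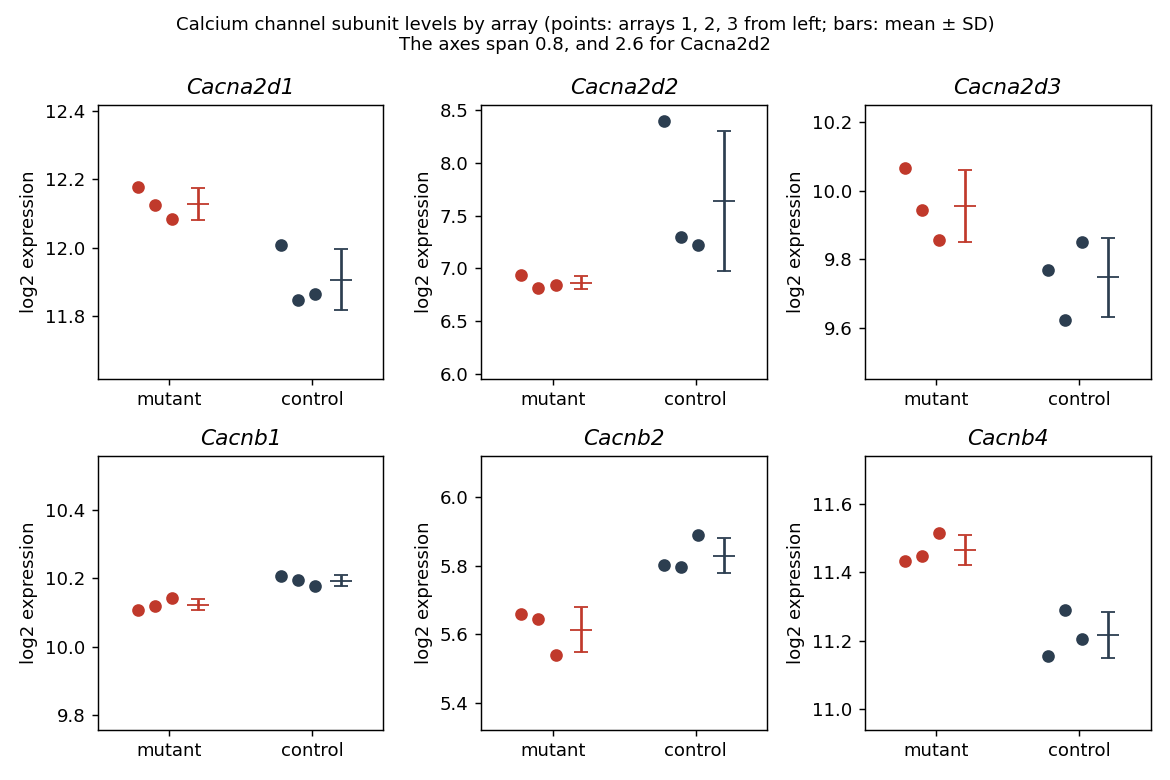
Log2 expression of the 6 measured calcium channel subunits in mutant (left) and control arrays (right). Points are arrays 1, 2 and 3 of each group and bars are mean ± SD (n = 3). Each axis has its own range, wider for Cacna2d2, whose control 1 lies at 8.40, and no gene's level can be set against another's.

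Of the α2δ subunits, Cacna2d1 encodes α2δ-1, the main binding site of gabapentin and pregabalin and a neuronal receptor for thrombospondins. Its probe set of higher mean (10519855) had levels of 12.18, 12.12 and 12.08 in mutant arrays, against 12.01, 11.85 and 11.86 in control arrays. All mutant arrays lay above all control arrays, by a gap of 0.075 between the nearest ones. Cacna2d1 averaged 12.13 ± 0.047 in mutants and 11.91 ± 0.089 in controls (SD, n = 3 each), a rise of 0.22 on the log2 scale (SE 0.062, adjusted p = 0.0445 from limma), or a fold of 1.17. A second probe set of the gene (10519815) did not show this, with 11.59, 11.47 and 11.38 in mutant arrays and 11.42, 11.45 and 11.48 in control arrays. There the groups overlapped, with a log2 change of 0.033 (SE 0.065, adjusted p = 0.813 from limma over all probe sets). The mean of both probe sets changed by 0.13 and was not called (adjusted p = 0.197 from limma). The rise of Cacna2d1 was therefore seen in 1 of its 2 probe sets. Which transcripts each probe set covers was not tested. Without any 1 array other than control 1, the adjusted p from limma was between 0.0902 and 0.159 and the change between 0.19 and 0.24, and without control 1 it was 0.00883 with a change of 0.27. Neither renewed quantile normalization nor centring on array medians kept this call.

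Cacna2d2 encodes α2δ-2, which also binds gabapentin and is disrupted in the ataxic and epileptic ducky mouse. Its levels (probe set 10588592) were 6.94, 6.81 and 6.84 in mutant arrays, against 8.40, 7.30 and 7.22 in control arrays. The mutant arrays lay close together and below all controls by a gap of 0.28, and control 1 stood far above the other controls. Cacna2d2 averaged 6.86 ± 0.065 in mutants and 7.64 ± 0.66 in controls (SD, n = 3 each). The log2 change of -0.78, with a 95% interval of -1.38 to -0.17 and an SE of 0.26, did not pass the test (adjusted p = 0.0894 from limma). By its size it ranked 395 among 19938 genes, the highest rank of the 6 subunits. Without control 1 the log2 change was -0.39 and passed the test (adjusted p = 0.00213 from limma), and without control 3 it was -0.99 (adjusted p = 0.0433). With any of the other 4 arrays left out it did not pass, with adjusted p between 0.0927 and 0.222. The direction was thus the same with and without control 1, while the size and the call were not.

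Cacna2d3 encodes α2δ-3, which does not bind gabapentin with high affinity and acts at presynaptic terminals. It had levels (probe set 10418300) of 10.07, 9.94 and 9.86 in mutant arrays, against 9.77, 9.62 and 9.85 in control arrays. Mutant 3 and control 3 were nearly equal, 0.0066 apart, so that the groups barely separated. Cacna2d3 averaged 9.96 ± 0.11 in mutants and 9.75 ± 0.12 in controls (SD, n = 3 each). The log2 change of 0.21 (SE 0.078, 95% interval 0.031 to 0.39) did not pass the test (adjusted p = 0.118 from limma), nor did it with any 1 array left out, where it lay between 0.15 and 0.26.

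Of the β subunits, Cacnb4 encodes β4, which is disrupted in the ataxic lethargic mouse and is expressed at many synapses of the brain. It had levels (probe set 10482695) of 11.43, 11.45 and 11.51 in mutant arrays, against 11.16, 11.29 and 11.21 in control arrays. The 3 mutant arrays lay above the controls by a gap of 0.14, wider than the range of either group. Cacnb4 averaged 11.46 ± 0.043 in mutants and 11.22 ± 0.067 in controls (SD, n = 3 each), a rise of 0.25 on the log2 scale (SE 0.057, adjusted p = 0.0203 from limma), or a fold of 1.19. This was the smallest p of the 6 subunits, at rank 2069 among all genes. Without mutant 1, 2 or 3 the adjusted p from limma was 0.0563, 0.0611 and 0.0887, with changes between 0.22 and 0.26, and it stayed past the threshold without any 1 control.

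Cacnb2 encodes β2, the main β subunit of heart muscle, of which some splice forms are held at the membrane. It had levels (probe set 10480254) of 5.66, 5.64 and 5.54 in mutant arrays, against 5.80, 5.80 and 5.89 in control arrays. All mutant arrays lay below all controls. Cacnb2 averaged 5.61 ± 0.065 in mutants and 5.83 ± 0.052 in controls (SD, n = 3 each), a decrease with a log2 change of -0.22 (SE 0.058, adjusted p = 0.0382 from limma), or a fold of 0.861. These levels lie under the median of every array, 6.29 to 6.36, and since the arrays carry no measure of detection they were not shown to be above background. The platform annotation ties this probe set to the gene through 1 cDNA record and no RefSeq transcript. Without any 1 array other than control 1, the adjusted p from limma was between 0.078 and 0.145 and the log2 change between -0.24 and -0.18, and without control 1 it was 0.0313 with a change of -0.23. With the arrays blocked by replicate number the adjusted p was 0.0675.

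Cacnb1 encodes β1, which is required for excitation-contraction coupling in skeletal muscle and has splice forms in brain. It had levels (probe set 10390542) of 10.11, 10.12 and 10.14 in mutant arrays, against 10.21, 10.20 and 10.18 in control arrays. The mutant arrays lay within a range of 0.032 and the control arrays within 0.031, and a gap of 0.035 separated them. Cacnb1 averaged 10.12 ± 0.017 in mutants and 10.19 ± 0.015 in controls (SD, n = 3 each). The log2 change of -0.070 (SE 0.049, 95% interval -0.18 to 0.041) did not pass the test (adjusted p = 0.423 from limma), nor did it without any 1 array, where it lay between -0.079 and -0.063.

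**Figure D2:**
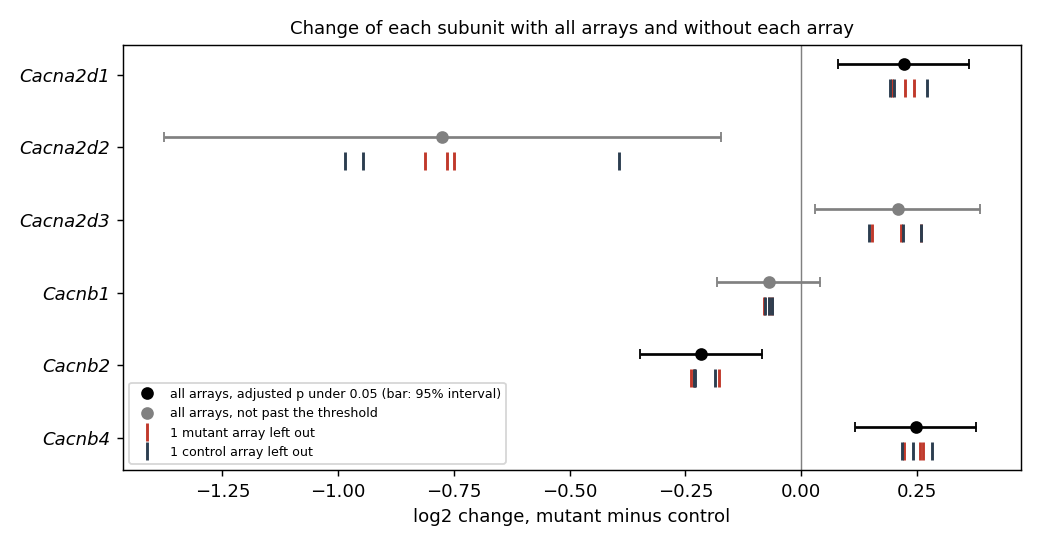
Log2 change of each measured subunit, mutant minus control, with all 6 arrays and its 95% interval from limma, and, as ticks, with each array left out in turn (red for a mutant, dark blue for a control array). The change of Cacna2d2 moves between -0.99 and -0.39, and all 6 subunits keep their sign.

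Differences between members within an array do not depend on the scale of that array. The difference Cacna2d1 minus Cacna2d2 averaged 5.26 ± 0.041 in mutants and 4.27 ± 0.57 in controls (SD, n = 3 each), and was higher in every mutant array by a mean of 0.997. Control 1 was the lowest of the controls, at 3.61, and controls 2 and 3 lay at 4.55 and 4.65, still below the lowest mutant array at 5.24. In the mutant arrays the signal of Cacna2d1 thus stood higher relative to that of Cacna2d2 than in any control array. Cacna2d1 minus Cacna2d3, by contrast, averaged 2.17 ± 0.060 in mutants and 2.16 ± 0.13 in controls, and these groups overlapped. Cacnb1 minus Cacnb4 averaged -1.34 ± 0.027 in mutants and -1.02 ± 0.072 in controls, without overlap. Of the 6 differences within the α2δ or the β subunits, 5 did not overlap between groups, beside 37.2% of the differences over all pairs of genes. Such a difference takes up the separation that its 2 members show on their own, which here held for all 6 subunits, so that this count adds nothing to theirs. The 2 differences that involve Cacnb2 rest on a signal not shown to be above background, and no size is given for them. Each of the 5 had a two-sided p of 0.1 by the exact permutation test, the smallest that 3 arrays against 3 can give.

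**Figure D3:**
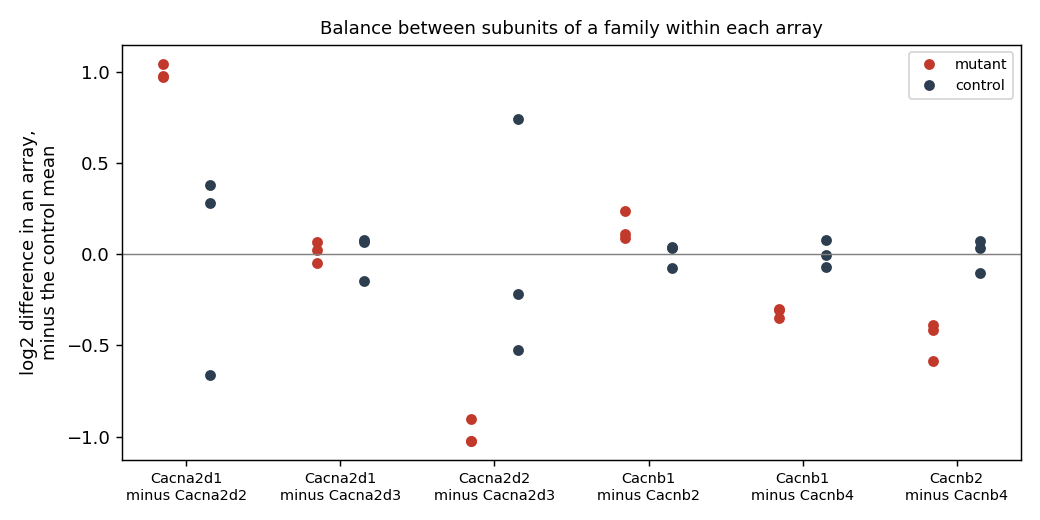
Differences in log2 level between 2 subunits on the same array, in mutant (left) and control arrays (right), shown minus the mean of the control arrays. The groups overlap for Cacna2d1 minus Cacna2d3 and for none of the other 5 differences, of which 2 rest on Cacnb2, whose signal was not shown to be above background.

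The 3 genes whose pattern over the 6 arrays was most like that of Cacnb4, by the root mean square difference of centred log2 levels, were Lman2 (0.0155), Scamp5 (0.0159) and Creb3l3 (0.0174). All 3 were higher in the mutant, with log2 changes of 0.25, 0.23 and 0.25. Since they were picked for their likeness to Cacnb4 over both groups, this direction and size follow from the choice and add no result.

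The pore-forming α1 subunits were mostly higher among those called. Of these, the T-type Cacna1g, Cacna1h and Cacna1i can work without the auxiliary subunits. Of 10 measured, 5 were higher and 1 lower in the mutant and 4 did not pass, with a median log2 change of 0.25 beside -0.0027 over all genes. Of all genes, 9.23% were called higher and 5.93% lower. Among genes with a mean at or above the median of gene means, 25.0% were called in either direction. Cacna1g, a T-type channel, averaged 9.64 ± 0.17 in mutants and 8.57 ± 0.38 in controls (SD, n = 3 each), with no overlap. It rose by 1.06 on the log2 scale (SE 0.168, adjusted p = 0.00323 from limma), a fold of 2.09. Cacna1a, the P/Q-type channel of fast transmitter release and a partner of β4, had levels of 10.93, 10.98 and 10.80 in mutant arrays, against 10.64, 10.39 and 10.28 in control arrays. Every mutant array lay above every control array, a rise of 0.47 (SE 0.093, adjusted p = 0.00986 from limma). Cacna1i, another T-type channel, rose by 0.38 (adjusted p = 0.0115 from limma). The remaining calls were the N-type Cacna1b and the L-type Cacna1d, both higher, and the T-type Cacna1h, which fell with a log2 change of -0.32 (adjusted p = 0.0466 from limma). T-type channels thus changed in both directions. The count of 5 higher was 2 without mutant 3, and 3 without mutant 1, mutant 2 or control 3. It was 4 without control 2 and 7 without control 1. The lower call was lost without mutant 1, 2 or 3 or control 2.

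The γ subunits and relatives of α2δ held 3 higher and 1 lower of 9 measured, beside 9.23% and 5.93% of all genes. Their median log2 change was 0.092. The γ subunits of neurons are best known as TARPs, which traffic AMPA receptors. Cacng2, or stargazin, rose by 0.50 (SE 0.10, adjusted p = 0.0125 from limma) and Cacng7 by 0.47, while Cacng5 fell with a log2 change of -0.72 (SE 0.091, adjusted p = 0.00103). Members of the TARP family therefore moved in opposite directions. Cacng3 was the other higher member. The count of 3 higher was 0 without mutant 2 or control 2, 1 without mutant 3 or control 3 and 2 without mutant 1, and without control 3 there were 2 lower. Cacna2d4, the remaining α2δ subunit, had a log2 change of -0.076 and the α2δ-like Cachd1 of 0.092, and neither passed the test (adjusted p = 0.574 and 0.607 from limma).

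Among 8 measured partners of α2δ proteins, 1 was called lower (limma), beside 15.2% of all genes called in either direction. None was higher and 7 did not pass the test. At an unadjusted p under 0.05, 2 had a positive change, Kcnma1 and Prnp. The median log2 change was 0.11. Thbs3, a thrombospondin, had levels of 6.74, 6.72 and 6.83 in mutant arrays, against 7.16, 7.12 and 7.18 in control arrays. It fell with a log2 change of -0.39 (SE 0.055, adjusted p = 0.00174 from limma), and the groups did not overlap. Thbs1, whose protein is an α2δ-1 ligand in synapse formation, had a log2 change of -0.31 near the threshold. It missed it in the main comparison (adjusted p = 0.0517 from limma) and passed it with a trend and robust prior (0.043), centring on array medians (0.0269) or the replicate block (0.0191). Prnp, the prion protein, had a log2 change of 0.14 (adjusted p = 0.113 from limma, 0.0385 with array weights). Without control 1, 1 partner was higher.

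Another list held partners of β subunits or of the channels that carry them, not all of them known here to bind β. Of 12 measured, 2 were higher and 1 lower, beside 9.23% and 5.93% of all genes. Among genes with a mean at or above the median of gene means, 25.0% were called. The median log2 change of the list was -0.026. Stac2, an adaptor of L-type channels, had levels of 7.71, 7.81 and 7.47 in mutant arrays, against 7.11, 6.97 and 6.94 in control arrays. It rose by 0.65 on the log2 scale (SE 0.092, adjusted p = 0.00171 from limma). The active zone scaffolds moved apart: Rims1, whose protein RIM1 binds β4, rose by 0.38 (SE 0.070, adjusted p = 0.00695), while Rims2 fell with a log2 change of -0.23 (SE 0.055, adjusted p = 0.0235). The call of Rims2 was lost without mutant 1, 2 or 3 or control 2. Of the small G proteins that bind β and inhibit the channel, Gem, Rem2 and Rrad were measured. None passed the test (limma, adjusted or at an unadjusted p under 0.05), although Gem did without control 2 (log2 change -0.36, adjusted p = 0.0369). All levels of Rem2 and Rrad and the mutant levels of Gem lay under the median of every array. They were not shown to be above background.

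**Figure D4:**
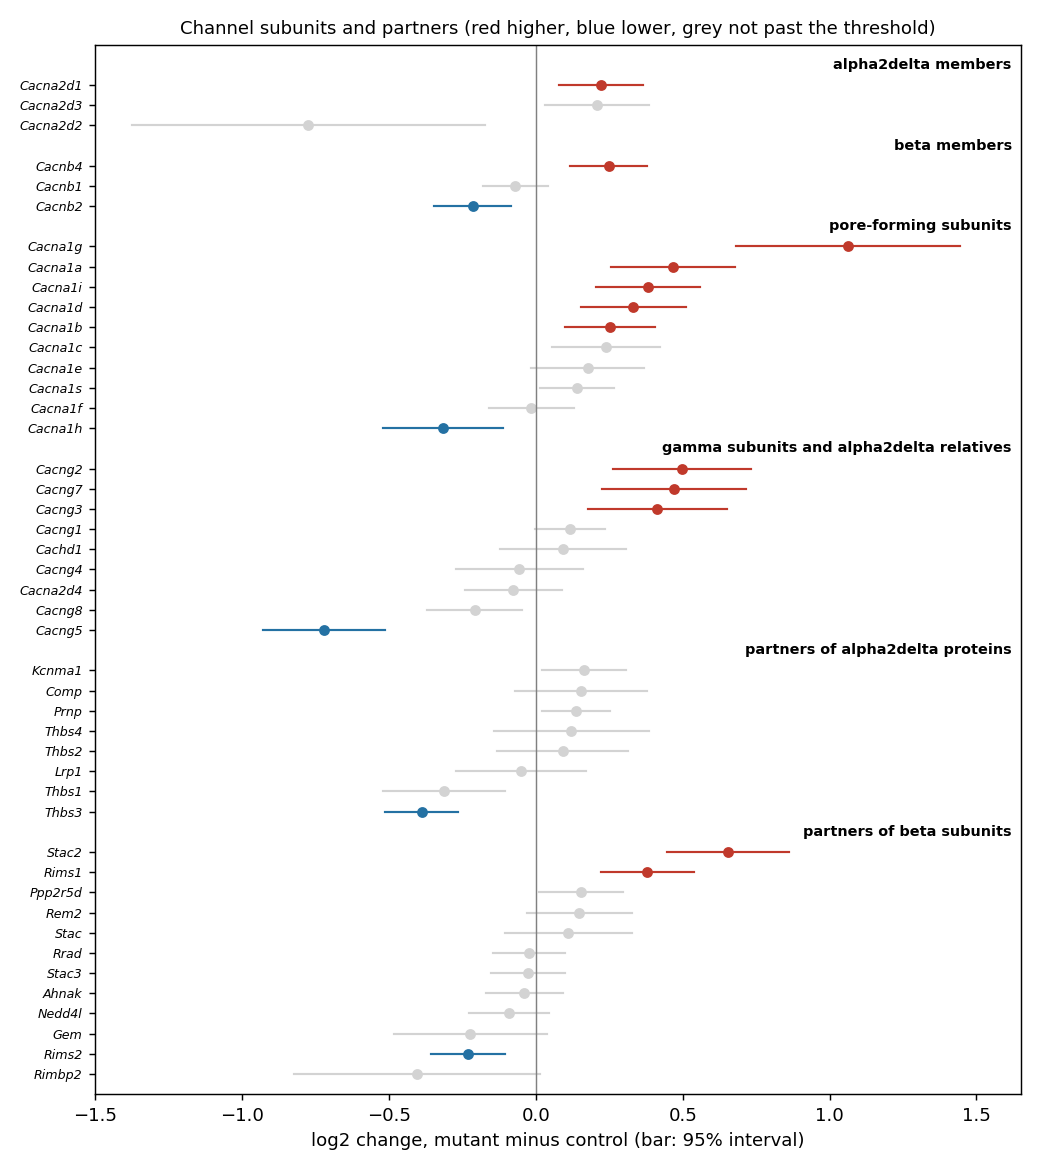
Log2 change, mutant minus control, of the measured auxiliary subunits and of 4 lists of related genes, with 95% intervals from limma in red for genes called higher, blue for genes called lower and grey for those not past the threshold. The auxiliary subunits called lie between -0.22 and 0.25, and the pore-forming subunits reach 1.06, in the T-type Cacna1g.

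The laser-captured layer was checked for the labelled cells and for their neighbours. Beside the counts below, 9.23% of all genes were called higher and 5.93% lower. Of the granule cell markers, Prox1, the defining transcription factor, lay between 11.57 and 11.65 in mutant and between 11.45 and 11.81 in control arrays, with overlap. Of 10 granule cell markers 4 were lower, with log2 changes of -3.29 for C1ql2, which the study picked from these samples, -1.64 for Trpc6, -0.97 for Calb1 and -0.81 for Dsp. Another 3 were higher, by 1.13 for Tdo2, 0.34 for Neurod1 and 0.24 for Slc30a3, and the median log2 change was -0.098. The mean level of the list was 10.44 to 10.55 in mutants and 10.99 to 11.02 in controls. Without C1ql2 and Trpc6, left out after their values were seen, it was 10.84 to 10.94 in mutants and 10.87 to 10.96 in controls, with overlap. Oligodendrocyte markers, of which 9 were measured, had a mean level of 7.66 to 7.85 in mutants and 7.99 to 8.11 in controls. Of these markers 1 was lower, Ermn, with a log2 change of -1.71, and without it the mean level was 7.85 to 8.02 in mutants and 7.995 to 8.11 in controls, with overlap. The defining markers Mbp, Mog and Mag did not pass the test. Of 10 markers of CA3 pyramidal and mossy cells 3 were higher, Grik4 among them, and 1 lower, Iyd, while Nectin3 did not pass the test, and their mean level was 7.13 to 7.17 in mutants and 7.09 to 7.13 in controls. Of 10 interneuron markers 2 were lower, Gad1 and Npy, while Gad2 and Slc32a1 did not pass, with a mean level of 7.78 to 7.90 in mutants and 7.76 to 8.03 in controls. Among the glial lists, 2 of 10 astrocyte markers were higher, Gfap and Slc1a2 (mean level 9.04 to 9.26 in mutants, 8.83 to 9.13 in controls), and 1 of 9 microglia markers was lower, Tmem119 (6.873 to 7.001 in mutants, 6.92 to 7.39 in controls). The astrocyte markers Aqp4 and Slc1a3 and the microglia markers Aif1, Cx3cr1 and P2ry12 did not pass the test. Without control 1, more markers were lower: 5 of 9 for microglia, 3 of 9 for oligodendrocytes and 2 of 10 for CA3 pyramidal and mossy cells. Over all genes, 1731 of 19938 were then lower. Of 9 endothelial markers 1 was higher, Flt1, while Cldn5 and Pecam1 did not pass, with a mean level of 6.66 to 6.89 in mutants and 6.61 to 6.75 in controls. Markers on a log scale without a true zero cannot show that a cell type is absent. The markers left out of the granule cell and oligodendrocyte lists had fallen most, so that leaving them out had to narrow the gap between groups. Of 9 oligodendrocyte markers, 4 had groups that did not overlap, beside 31.6% of all genes. Besides Ermn these were Mog, Cldn11 and Opalin, lower with log2 changes of -0.27, -0.22 and -0.22 and not past the test. The groups overlapped for the rest, of which Mobp had a positive change of 0.090. The part of any of these markers in the changes of Cacna2d1, Cacnb2 and Cacnb4 was not tested.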

How the data were processed

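The granule cell layer was measured in 3 mutant and 3 control samples on 1-colour arrays. Per the labels, the authors deposited 1 log2 value per probe set, made with RMA in Affymetrix Expression Console. No source used here gives tool versions, the build of the probe annotation or a batch. RMA brings the arrays' distributions together, so that a shift shared by all genes cannot be read from these values. A small offset between the groups remained. Centring on array medians moved the log2 change of Cacna2d1 from 0.22 to 0.17 and that of Cacnb4 from 0.25 to 0.20. It moved that of Cacnb2 from -0.22 to -0.26.

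Of 35556 probe sets, the platform annotation paired 21789 with 1 gene, 1621 with several and did not list 12146. Of those with 1 gene, 21698 had their Entrez number in the RefSeq table of GRCm38.p6. The probe set with the highest mean stood for each of 19938 genes, with no filter on level. The comparison of groups used R 4.3.3 and limma 3.58.1 (lmFit, eBayes, no covariates) and Benjamini-Hochberg adjustment over all genes at 0.05. The scripts were tested on simulated data. The number of arrays limits the precision.

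The members and lists were chosen with earlier results of these data known. The text names the 7 members, Bcl11b, up to 3 genes of smallest p of each list of related genes, the 3 nearest patterns of the member with the smallest p and the first 3 markers of a list. Other genes named, such as Cacna1b, Cacna1d, Cacna1h, Cacng3, Cacna2d4, Cachd1, Kcnma1, Gem, Rem2, Rrad, C1ql2, Tdo2, Trpc6, Neurod1, Slc30a3, Ermn, Npy, Slc1a2 and Tmem119, were chosen after their values were seen.

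Same-numbered arrays deviated together with correlations of 0.16, -0.033 and 0.12, and no source says what the number marks, so the arrays were not paired. Alternatives were an unpaired t-test, weights per array, a robust prior with a trend, leaving out dim genes, other probe set rules, renewed normalization, the replicate block, other thresholds and leaving out each array. The methods name this t-test for comparisons of groups in general and BRB-ArrayTools for the arrays. Added after seeing the data were 2 marker lists without the markers that moved most. RefSeq windows before listed start sites were searched for 1 pentamer.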

Additional observations from a re-analysis of the deposited data

How the results depend on the processing

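No member, Bcl11b, pattern neighbour or gene of the related lists chosen by smallest p changed its direction under any alternative run. With 1 array left out, the direction turned for 3 genes that had not passed the test: Prox1 (between -0.15 and 0.027, positive without control 1), Cachd1 (between -0.019 and 0.17, negative without mutant 2) and Rrad (between -0.045 and 0.0040, positive without mutant 1). Of 13 defining markers of other cell types that had not passed, 5 turned under some alternative (Gad2, Slc32a1, Aqp4, Cldn5 and Pecam1) and 3 passed the test under some, all lower in mutants (Nectin3, Mog and P2ry12). At an unadjusted p under 0.05, the unpaired t-test called 4 members, Cacna2d1, Cacnb1, Cacnb2 and Cacnb4. Limma called 3 adjusted and 5 unadjusted. With the unpaired t-test after Benjamini-Hochberg adjustment, 0 members were called, and 1141 genes, against 4545 genes unadjusted. Of the called genes chosen by smallest p from the related lists, only Thbs3 stayed past the threshold (adjusted p = 0.0283). Array weights called 5 members, all but Cacnb1, and 5527 genes. At an adjusted p under 0.01 limma called 0 members and 1554 genes. With 1 array left out, between 0 and 4 members and between 1886 and 4487 genes were called by limma. The 0 members were those without mutant 1, 2 or 3, with 4, 4 and 5 members at an unadjusted p under 0.05, and without control 1 the 4 members were Cacna2d1, Cacna2d2, Cacnb2 and Cacnb4. Without control 2 only Cacnb4 was called, and without control 3 Cacnb4 and Cacna2d2. Fewer arrays leave fewer degrees of freedom, and the cause beyond that was not tested. Cacnb2 and Cacnb4 were called under renewed quantile normalization and centring on array medians, where Cacna2d1 was not. With centring the adjusted p of Cacnb4 was 0.0494 from limma. Under the mean of all probe sets Cacna2d1 was not called either. That setting could not alter the values of Cacnb2 and Cacnb4, which have 1 probe set each. Centring called 1423 genes higher and 1800 lower, against 1840 and 1183. The replicate block called 3 members, Cacna2d1, Cacna2d2 and Cacnb4, and 3176 genes, 2796 of them shared. The samples share only a number, which was that of the best correlated array for 4 of 6.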
